A study of Mus musculus with 48 samples.

Results

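Ino80e and 9 further genes of the INO80 chromatin remodelling complex were followed through RNA sequencing of cortex, striatum and cerebellum from mice with a deletion of band 7qF3, the stretch of mouse chromosome 7 syntenic to human 16p11.2. The members were chosen by name: Ino80e, Ino80, Ino80b, Ino80c, Ino80d, Actr5, Actr8, Nfrkb, Mcrs1 and Tfpt. All 10 were found among the 47069 genes of the count table, each under 1 Ensembl identifier, and all 10 passed the filter on low counts in all 3 tissues. Ino80e lies in the deleted interval and the other 9 lie elsewhere. Each tissue had 8 libraries labelled 16p11.2 Deletion and 8 labelled as wild-type controls, with 4 males and 4 females in each group. The strain of all animals was given as C57BL/6N:129Sv, and the labels do not say whether 1 or both copies are deleted. Their age field holds a calendar date in place of an age, 1 date for the males and another for the females, and the effects of sex and of date cannot be told apart. The same 16 animals gave all 48 libraries, and each library is named by the D (deletion) or W (wild type) and animal number of its label.

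INO80 is a multi-subunit machine that slides nucleosomes along DNA with the energy of ATP and acts at promoters, replication forks and DNA breaks. Its motor, the protein of Ino80, is a scaffold on which actin-related proteins, the RuvB-like ATPases Ruvbl1 and Ruvbl2 and several smaller subunits assemble. Part of the complex is found in animals and not in yeast, and the product of Ino80e belongs to that part, together with those of Ino80d, Nfrkb, Mcrs1 and Tfpt.

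Per library, the gene counts totalled 29557660 to 36507597 in cortex, 29244745 to 60751792 in striatum and 29331296 to 34417630 in cerebellum. Ino80e took 541 to 1988 of them in a library. All 8 striatal, 8 cortical and 8 cerebellar markers were detected in every group. The mean log2 CPM (counts relative to the scaled library size) of the cerebellar markers was 6.78 or more in cerebellum libraries and 2.39 or less elsewhere. Striatal markers did not separate the libraries labelled striatum (3.96 to 9.30) from those labelled cortex (3.71 to 8.21), and 1 deletion striatum library, D810, had a higher mean for thalamic markers (5.72) than for striatal ones (5.09). In tissue RNA, fewer cells of a type and less RNA per cell cannot be told apart.

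Ino80e (ENSMUSG00000030689) is annotated on the minus strand of chromosome 7, from 126850960 to 126862377 in GRCm38, with 6 merged exon blocks. It is packed between 2 other genes of the interval on the opposite strand. At its start it overlaps Hirip3, which encodes a HIRA-interacting protein, by 406 bp of gene span and 150 bp of exon. Its other end overlaps Doc2a, which encodes a calcium sensor of transmitter release, by 1103 bp of exon, or 14.4% of the merged Ino80e exons. The libraries were stranded, but whether the counting used strand is not given in the sources used here, so reads of the overlapping exons may have been shared. The RefSeq table used here lists 2 starts for Ino80e. The 250 bases upstream of the first, all annotated as Hirip3 exon, held 17 CpG dinucleotides and 55.2% G and C. Those upstream of the second, at 126861463, held 11 CpG dinucleotides and 56% G and C. Medians over 32851 such windows were 6 and 52.4%. The start region of Ino80e is shown because the 2 opposed genes overlap there. The RefSeq promoter window of the first start also takes in the first bases after that start. It held 1 match each to 4 of 5 short motifs searched on both strands, chosen after the window had been seen. They were the YY1 core GCCATNTT (in 6.05% of all RefSeq promoter windows of the same length), the NRF1 core (4.6%), the E-box CACGTG (7.15%) and the CCAAT box CCAAT (37.4%). The ETS core CCGGAAG (8.86%) was not among the letters of this window. The window of the second start held no match to any of the 5 motifs. YY1 is a zinc finger protein that copurifies with INO80. Of the other members, only Ino80, Ino80b, Nfrkb, Mcrs1 and Tfpt had a promoter window searched, and among these Ino80b alone had a YY1 core. No window of Ino80c, Ino80d, Actr5 or Actr8 was searched. Lines below are 5′ to 3′ on the minus strand of GRCm38.p6, with the motif matches in capitals, and no 2 matches overlap.
Ino80e YY1 core and reversed CCAAT box, chr7:126862430-126862459: ggcGCCATTTTgcgtcaccagggATTGGtt
Ino80e NRF1 core, chr7:126862361-126862390: acagtagtttGCGCACGCGCagtgcggcgg
Ino80e E-box, chr7:126862573-126862602: gagctacagagaCACGTGtcatgacagagt
Ino80b reversed YY1 core, chr6:83125318-83125347: gttttgagaacAAGATGGCattaagcctgg
A match describes the letters only and marks no tested site. The YY1 match began at position -84 from the first Ino80e start and the NRF1 match at -8, where it spans that start.

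Ino80e was lower with the deletion in all 3 tissues, at 0.496 to 0.528 of the wild-type level, and it was the only one of the 10 members that passed the test. In cortex, deletion libraries ran from 16.6 to 30.8 CPM with a median of 21.5, and wild-type libraries from 35.0 to 55.1 with a median of 45.5. Striatal values ran from 19.0 to 30.5 CPM with the deletion (median 23.6) and from 35.1 to 60.3 without it (median 40.0). In cerebellum they ran from 17.5 to 29.1 CPM (median 26.7) and from 36.1 to 59.7 (median 50.9). All 8 deletion libraries of a tissue lay below all 8 wild-type libraries of that tissue. The males and the females of each group were found on both sides of its median.

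**Figure D1:**
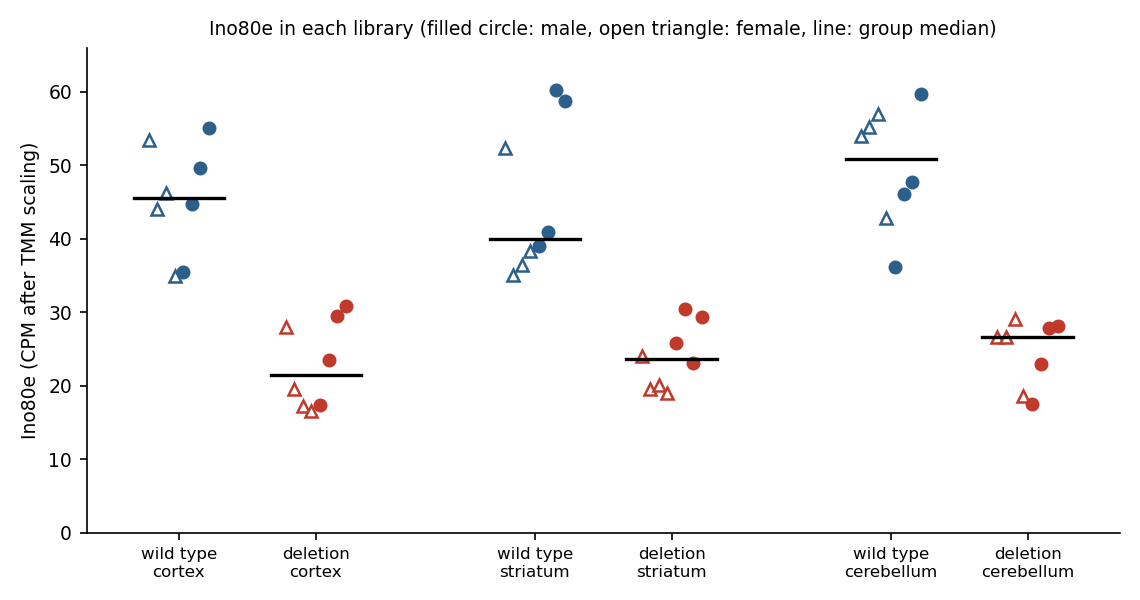
Each point is the Ino80e level of 1 library in CPM after TMM scaling, by tissue and genotype, with filled circles for males, open triangles for females and a line at the group median. The highest deletion values (30.8, 30.5 and 29.1 CPM in cortex, striatum and cerebellum) stay below the lowest wild-type values (35.0, 35.1 and 36.1).

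The log2 fold change of Ino80e, deletion relative to wild type, was -1.0 ± 0.15 in cortex (SE, adjusted p = 0.00702 by edgeR's quasi-likelihood test with Benjamini-Hochberg adjustment over all genes tested). It was -0.92 ± 0.12 in striatum (adjusted p = 0.00139) and -1.01 ± 0.13 in cerebellum (adjusted p = 0.00159). As ratios these were 0.499 (95% interval 0.400 to 0.623), 0.528 (0.443 to 0.630) and 0.496 (0.410 to 0.602). A call here means an adjusted p under 0.05, which 0.130% of 16877 genes met in cortex, 0.128% of 17198 in striatum and 0.138% of 16672 in cerebellum. Ino80e ranked 15th, 12th and 10th by p among them. With the mean log2 CPM of the striatal markers as a covariate, the cortex value was -0.95 and missed the threshold (adjusted p = 0.0512). That marker mean had a median of 7.23 in deletion cortex and 6.11 in wild-type cortex.

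In males the log2 fold change was -0.87, -0.88 and -0.97 in cortex, striatum and cerebellum, and in females -1.14, -0.97 and -1.05. With 4 animals a side, neither sex alone passed the threshold over all genes. The difference of the effect, female minus male, was -0.26 ± 0.30 in cortex (95% interval -0.91 to 0.38), -0.10 ± 0.25 in striatum (-0.62 to 0.42) and -0.07 ± 0.27 in cerebellum (-0.65 to 0.50), in edgeR fits with an interaction term. None of the 10 members had a called sex difference, and the background in each tissue was likewise 0% of the genes tested. Between tissues, the Ino80e effect differed by 0.09 ± 0.20 for striatum minus cortex (95% interval -0.31 to 0.50). For cerebellum minus cortex and cerebellum minus striatum the differences were -0.00 ± 0.20 (-0.41 to 0.40) and -0.10 ± 0.20 (-0.50 to 0.31). No member's effect differed by tissue at an adjusted p under 0.05, against 0% of 18531 genes.

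Of the neighbours that share exon sequence with Ino80e, Hirip3 was called lower in every tissue, and Doc2a had a call in cortex that several alternatives ended. Hirip3 fell by 1.11, 0.93 and 1.12 on the log2 scale in cortex, striatum and cerebellum, with adjusted p of 6.74e-05, 0.000520 and 0.000121 by edgeR. Doc2a had log2 fold changes of -1.14 ± 0.20 in cortex, -1.15 ± 0.31 in striatum (adjusted p = 0.619) and -0.34 ± 0.79 in cerebellum (adjusted p = 1). In cerebellum Doc2a had only 10 to 425 counts in a library, and leaving out 1 library at a time gave -1.30 to 0.35. Its cortex call (adjusted p = 0.0249) was lost when library D801, D802, D803, D811 or D812 of the deletion group, or W807, W808, W813, W814 or W815 of the wild-type group, was left out, with adjusted p from 0.0612 to 0.0811. It was also lost in males alone and females alone, with the striatal marker covariate (-0.93, adjusted p = 0.222), in 1 fit of 48 libraries (adjusted p = 0.998) and with the animal as a random replicate block in limma (adjusted p = 0.990). In wild-type libraries Doc2a had a median of 55.2 CPM in cortex and 1.93 in cerebellum. The Ino80e log2 fold change was -1.0 and -1.01 in these tissues. Doc2a lies in the deleted interval too, and whether reads were shared was not tested. Among the tested interval genes, ordered from the most negative log2 fold change, Ino80e was 17th of 21 in cortex, 20th of 22 in striatum and 14th of 23 in cerebellum. The medians of those genes were -1.08, -1.04 and -1.02.

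None of the other 9 members passed the test in any tissue by edgeR, and none did by DESeq2. None had an unadjusted p under 0.05 either, a limit that 2.03% of the genes tested met in cortex, 3.32% in striatum and 2.08% in cerebellum. Their median log2 fold change was -0.06 in cortex, -0.04 in striatum and -0.11 in cerebellum, beside 0.00, -0.01 and -0.00 over all genes tested. Single members ran from -0.19 to 0.25, from -0.13 to 0.02 and from -0.21 to 0.01. The widest 95% interval was that of Ino80d in cerebellum, from -0.64 to 0.41, and in cortex that of Tfpt, from -0.64 to 0.33. The narrowest was that of Ino80c in cerebellum, from -0.13 to 0.15. With 8 animals a side, changes inside a member's own interval were not excluded. The call over all genes could also miss a change whose interval leaves out 0. In striatum the interval gene Doc2a had a 95% interval from -1.80 to -0.50, with an adjusted p of 0.619 by edgeR.

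**Figure D2:**
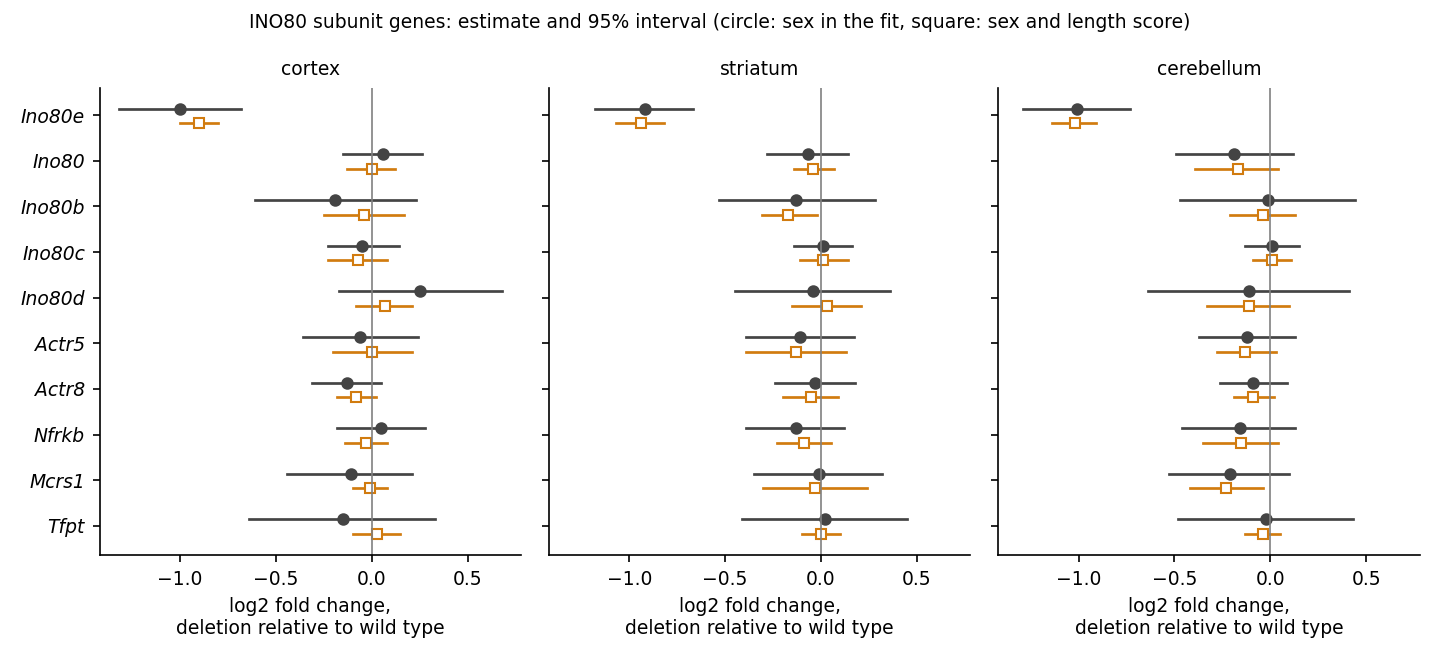
Log2 fold changes of the 10 members, deletion relative to wild type, with 95% intervals in each tissue. Filled circles are the fits with sex as covariate, and open squares add the second length score described further on. Ino80e lies near -1 in every panel and the intervals of the other 9 include 0 in the fits with sex alone.

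Within the part found in animals, Nfrkb, which binds the deubiquitinase Uchl5, had median levels of 33.2 CPM with the deletion and 33.3 without it in cortex. Its medians were 36.0 and 39.2 CPM in striatum and 39.7 and 41.6 in cerebellum, and the groups overlapped in every tissue. Mcrs1, which encodes a forkhead-associated domain protein shared with other nuclear complexes, ran from 55.7 to 109 CPM in deletion cortex (median 81.8) and from 65.2 to 122 in wild-type cortex (median 95). In cerebellum 2 of 8 deletion libraries lay below every wild-type library, with a log2 fold change of -0.21 ± 0.15 (adjusted p = 1).

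Tfpt, the gene of a small subunit first met as a fusion partner in leukaemia, ran from 16.4 to 43.6 CPM in deletion cortex (median 26.4) and from 18.3 to 44.9 in wild-type cortex (median 30.6). In striatum its ranges were 17.2 to 42.1 CPM and 17.3 to 45.3, and in cerebellum 15.0 to 38.1 and 14.9 to 37.2. The groups nearly coincide, and the highest library of each group was well over double the lowest. Its log2 fold changes were -0.15 ± 0.23, 0.02 ± 0.20 and -0.02 ± 0.21. Ino80d, a further subunit of the animal-specific part, ran from 21.3 to 50.4 CPM in deletion cortex (median 27.1) and from 19.3 to 43.1 in wild-type cortex (median 24.2). Its cerebellar range was the widest of any member as a ratio, 15.1 to 66.6 CPM with the deletion and 22.1 to 72.5 without it. The log2 fold changes of Ino80d were 0.25 ± 0.20, -0.04 ± 0.19 and -0.11 ± 0.25.

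The motor gene Ino80 had medians of 35.0 and 36.4 CPM in deletion and wild-type cortex, 37.2 and 40.5 in striatum and 46.9 and 49.3 in cerebellum. Its log2 fold changes were 0.06 ± 0.10, -0.07 ± 0.10 and -0.19 ± 0.14. Actr5, an actin-related protein gene whose product pairs with that of Ino80c on the nucleosome, was at 5.78 to 12.6 CPM in deletion cortex and at 8.00 to 10.2 in wild-type cortex. There 5 of 8 deletion libraries lay below all wild-type libraries and 2 lay above all of them, with a log2 fold change of -0.06 ± 0.14. Ino80c had a coefficient of variation between 5.65 and 10.6%, the lowest of the members in each group except wild-type cortex, where Actr5 had 8.97%. Its log2 fold changes were -0.05 ± 0.09, 0.01 ± 0.07 and 0.01 ± 0.07. Actr8, whose actin-related product contacts linker DNA, had log2 fold changes of -0.13 ± 0.08, -0.03 ± 0.10 and -0.09 ± 0.08. Ino80b, the gene of a small subunit that binds the motor, was at 6.12 to 21.2 CPM over all libraries, with log2 fold changes of -0.19 ± 0.20, -0.13 ± 0.19 and -0.01 ± 0.22.

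The level of Ino80e relative to its partners changed as its own level did. The log2 ratio of Ino80e CPM to the geometric mean of the other 9 members does not depend on library scaling. In cortex it ran from -0.62 to 0.04 with the deletion (-0.30 ± 0.28, mean and SD, n = 8) and from 0.39 to 0.93 without it (0.68 ± 0.19). The striatal ratio was -0.31 ± 0.20 with the deletion and 0.55 ± 0.22 without it, and the cerebellar ratio -0.26 ± 0.22 and 0.65 ± 0.20. On this measure no deletion library reached the lowest wild-type ratio of its tissue. With the median of the other 9 in place of their geometric mean, the groups overlapped in every tissue. That ratio reached -0.09 in deletion cortex and went down to -0.30 in wild-type cortex, against 0.02 and -0.29 in striatum and 0.06 and -0.56 in cerebellum. For the ratio to the geometric mean, the difference of means, deletion minus wild type, was -0.97, -0.86 and -0.91 in cortex, striatum and cerebellum. For the ratio to the median it was -1.10, -0.81 and -0.90. The mean log2 CPM of the other 9 members differed by -0.05, -0.03 and -0.10.

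**Figure D3:**
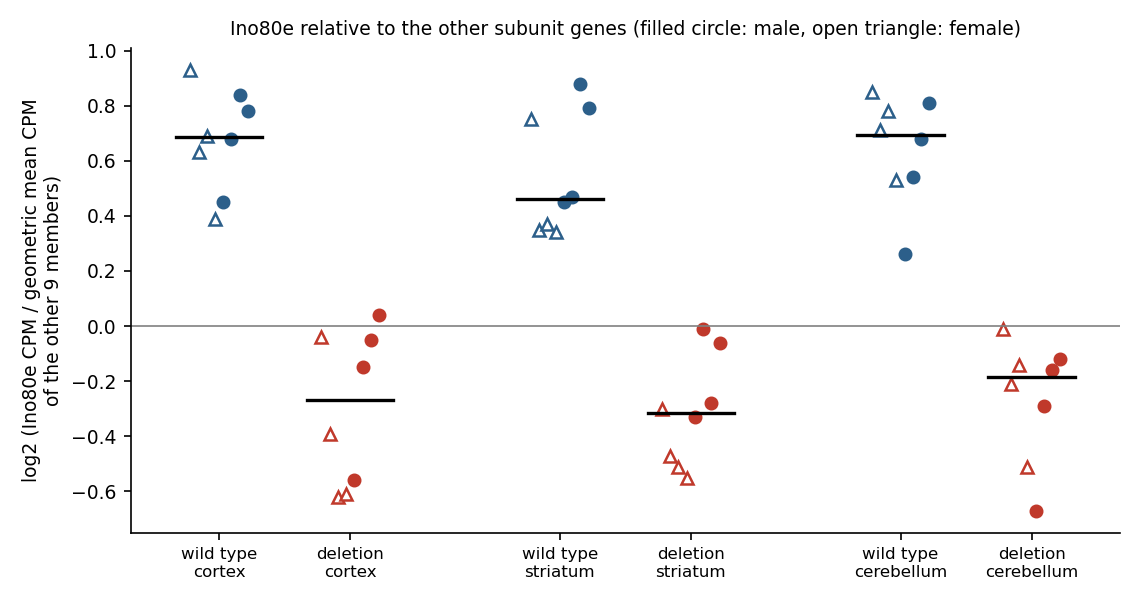
Each point is 1 library, with the log2 ratio of Ino80e CPM to the geometric mean CPM of the other 9 members on the vertical axis, filled circles for males, open triangles for females and a line at the group median. Wild-type medians are 0.69, 0.46 and 0.70 in cortex, striatum and cerebellum, and deletion medians -0.27, -0.32 and -0.18.

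Between animals of the same genotype, the members moved in 2 opposed sets. Ino80e, Ino80b, Tfpt, Mcrs1, Actr8 and Actr5 tended to be high in the same libraries, and Ino80, Ino80d and Nfrkb in the others, with some weak pairs in striatum and cerebellum. The sets were formed after the correlations had been seen, and they are a description. With each value taken as the deviation of log2 CPM from its genotype mean within a tissue, all 15 pairs inside the set of 6 had a positive Pearson r in each tissue. Those r ran from 0.47 to 0.97 in cortex, from 0.13 (Actr5 with Mcrs1) to 0.96 in striatum and from 0.67 to 0.95 in cerebellum. All 18 pairs between the sets had a negative r. The strongest was -0.91 in each tissue, and the weakest was -0.49 in cortex, -0.20 in striatum and -0.33 in cerebellum. Ino80e and Tfpt had r of 0.97 in cortex, 0.94 in striatum and 0.95 in cerebellum over 16 libraries each (Spearman's rho 0.96, 0.93 and 0.77). Ino80e and Ino80d had r of -0.90, -0.83 and -0.78 (rho -0.89, -0.82 and -0.67). Without the 2 libraries farthest from the median of Ino80e, the latter became -0.86, -0.78 and -0.55.

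The order of the members by the length of the principal transcript matched this division. The set of 6 holds the 6 shortest principal transcripts, Ino80b at 1038 bp, Tfpt at 1091, Mcrs1 at 1916, Ino80e at 1973, Actr8 at 2328 and Actr5 at 2402. The opposed set holds the 3 longest, Nfrkb at 5161 bp, Ino80 at 6354 and Ino80d at 13529. Ino80c, at 2498 bp, lies between them and had r from -0.59 to 0.56 with the other members. By merged exon length the order did not match: Ino80, at 6803 bp, is shorter on that measure than Ino80e at 7644 and Actr8 at 9009, and Ino80c, at 2828, is shorter than Mcrs1 at 3506 and Actr5 at 4186. A length score was computed for each library, as the slope over all genes tested of the deviation in log2 CPM on log2 merged exon length, with the members and interval genes left out. The score correlated with Tfpt at r of -0.98, -0.99 and -0.99, with Ino80e at -0.97, -0.94 and -0.93, and with Ino80d at 0.95, 0.94 and 0.93. These 3 genes were chosen and the score was built after the opposed pattern had been seen, so the correlations are a description. Within males and within females the correlations with the score kept their sign, with sizes of r from 0.82 to 0.99. The pattern is not particular to INO80: r with Ino80d was above 0.8 for 17.4% of all genes tested in cortex, 13.6% in striatum and 18.7% in cerebellum, and below -0.8 for 17.8%, 14.7% and 16.9%.

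**Figure D4:**
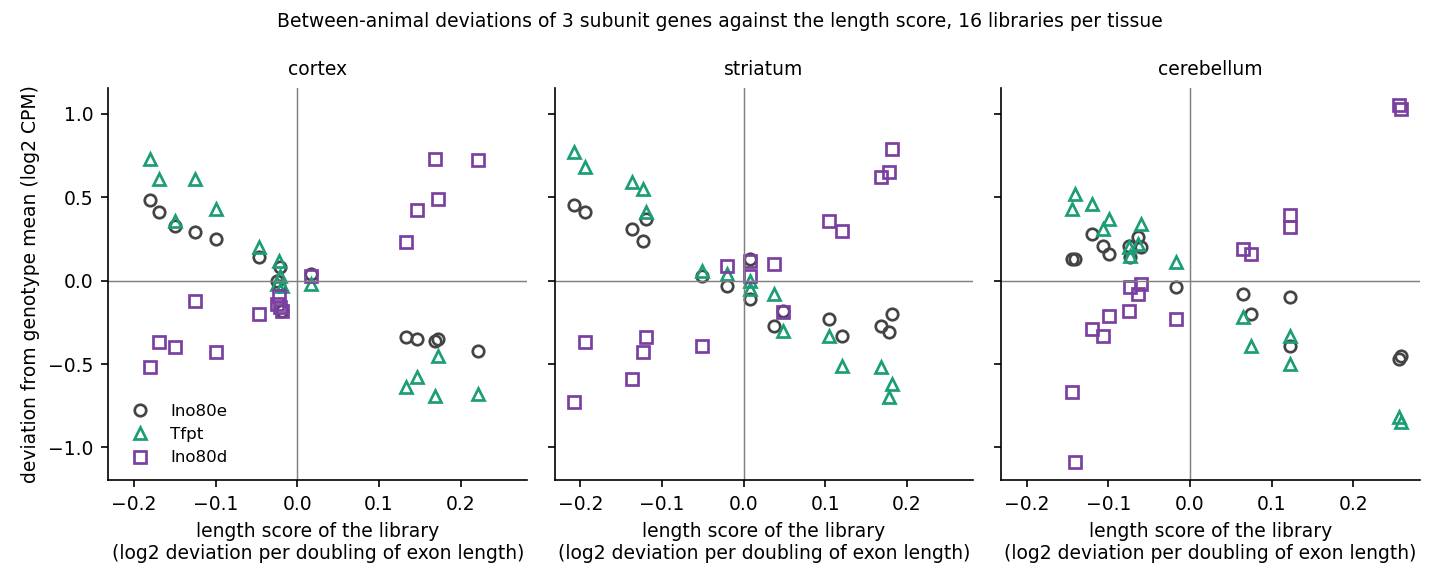
Deviation of Ino80e (circles), Tfpt (triangles) and Ino80d (squares) from the genotype mean in log2 CPM against the length score of the library, which is the log2 deviation per doubling of exon length, for 16 libraries per tissue. Tfpt and Ino80e fall and Ino80d rises along the score in each tissue.

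Deviations from genotype means leave that score no difference between genotypes, so a second score was built on deviations from the tissue mean. This second score differed little between genotypes, with means of 0.03 ± 0.16 (SD, n = 8) in deletion and -0.03 ± 0.10 in wild-type cortex. Its means were -0.01 ± 0.11 and 0.01 ± 0.16 in striatum and -0.00 ± 0.14 and 0.00 ± 0.14 in cerebellum. The second score was used as a covariate beside sex, an alternative added after seeing the data. The Ino80e log2 fold change was then -0.90 ± 0.05 in cortex, -0.94 ± 0.06 in striatum and -1.02 ± 0.05 in cerebellum. Adjusted p by edgeR were 1.83e-08, 1.87e-07 and 2.23e-08, where 0.160, 0.174 and 0.180% of all genes were called. The SE was thus smaller than the 0.15, 0.12 and 0.13 of the fits without the score. None of the other 9 members was called in these fits. Of the 27 member and tissue combinations, Ino80b in striatum (-0.17 ± 0.07, unadjusted p = 0.0250, adjusted 0.529) and Mcrs1 in cerebellum (-0.23 ± 0.09, unadjusted p = 0.0235, adjusted 0.724) had an unadjusted p under 0.05. Over all genes tested in these fits, 5.10% met that limit in cortex, 8.23% in striatum and 6.83% in cerebellum. The interval of Tfpt in cortex narrowed from -0.64 to 0.33 to -0.10 to 0.15.

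Wild-type levels of the members were compared between tissues in 1 fit of the 24 wild-type libraries. A called difference was found for 3 of the 10 members. Mcrs1 was lower in striatum than in cortex (log2 difference -0.50 ± 0.15, adjusted p = 0.0240) and Actr5 was higher (0.42 ± 0.13, adjusted p = 0.0203). Ino80 was higher in cerebellum than in cortex (0.38 ± 0.12, adjusted p = 0.0120) and than in striatum (0.34 ± 0.12, adjusted p = 0.0250). Actr5 was lower in cerebellum than in striatum (-0.33 ± 0.13, adjusted p = 0.0362). In striatum relative to cortex 1 member was called higher and 1 lower, where 9.95% and 8.67% of 17633 genes were. In cerebellum 1 member was called higher than in cortex and none lower (background 24.2% and 24.7%). Relative to striatum it had 1 called higher and 1 lower (22.4% and 25.5%). With the animal as a replicate block, Mcrs1 was also called lower in cerebellum than in cortex (-0.28 ± 0.09, adjusted p = 0.0134), which makes 2 called members. It was also called higher in cerebellum than in striatum (0.23 ± 0.09, adjusted p = 0.0431), which makes 3. The block raised the background too: higher and lower together, 57.4% of all genes were called between cerebellum and cortex. Between cerebellum and striatum the blocked share was 56.4%. Without the block, Ino80e differed by -0.09 ± 0.14 for striatum minus cortex and 0.03 ± 0.14 for cerebellum minus cortex. For cerebellum minus striatum it differed by 0.12 ± 0.14, and none of these differences passed the test.

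Per kilobase of principal transcript, wild-type Ino80e stood at 23.9 ± 4.02 CPM per kb in cortex (SD, n = 8), 22.5 ± 5.23 in striatum and 24.6 ± 4.05 in cerebellum. The highest member on that scale was Mcrs1 at 49.8 ± 9.46 in cortex, followed by Tfpt at 29.3 ± 8.92 and Actr8 at 26.3 ± 2.99, and Ino80e came next. The range of 1 SD around the mean of Ino80e in cortex overlapped those of Tfpt and Actr8. Ino80b followed at 10.5 ± 3.11, Ino80c at 9.75 ± 0.950, Nfrkb at 7.07 ± 0.976, Ino80 at 5.92 ± 0.744, Actr5 at 3.97 ± 0.366 and Ino80d at 2.05 ± 0.553. The place of Ino80e rests on the length used: per kilobase of merged exons, 7644 bp in place of 1973, it had 6.18 ± 1.04 in cortex and came sixth.

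**Figure D5:**
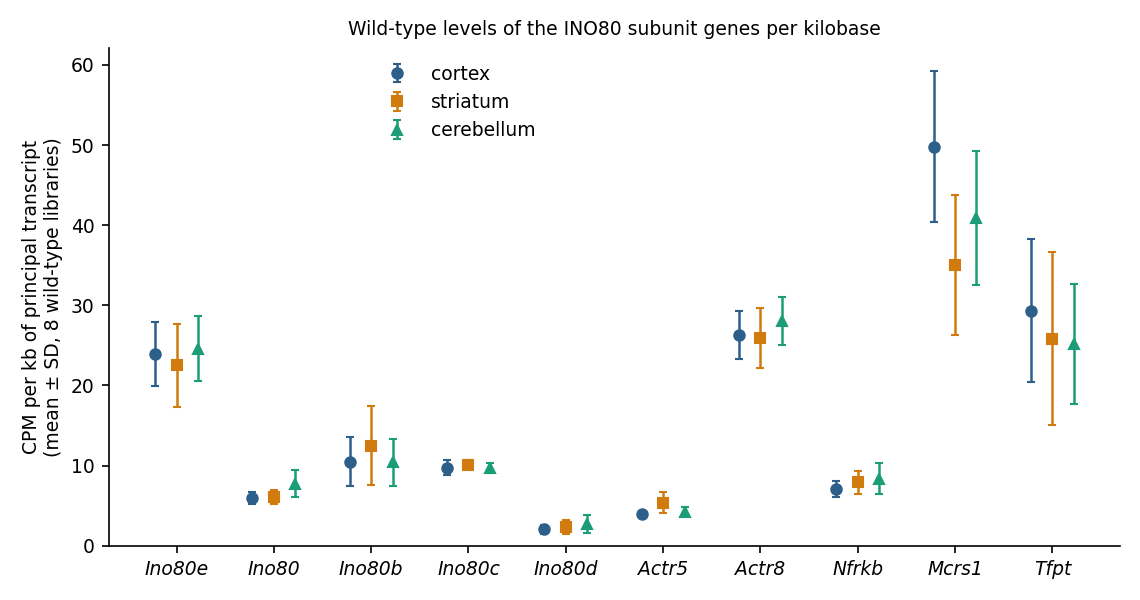
Mean level of each member in wild-type cortex (circles), striatum (squares) and cerebellum (triangles), in CPM per kb of principal transcript, with SD bars over 8 libraries. Mcrs1 is highest in each tissue and Ino80d lowest.

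The genes most like Ino80e across all 48 libraries came from the same stretch of chromosome 7. Likeness was the root mean square difference in log2 CPM after centring each gene, over 15892 genes tested in all tissues. Over libraries of both genotypes it takes in the difference between them, so genes lowered together with the deletion come out near by construction. The nearest were Tmem219 (0.17), Cd2bp2 (0.19), Ppp4c (0.20), Tbc1d10b (0.21) and Cdipt (0.21). Cd2bp2 and Tbc1d10b are outside the list of 26 interval genes and lie at 127191660 to 127196050 and 127197459 to 127208468. Their log2 fold changes were -1.05, -1.07 and -1.07 for Cd2bp2 and -1.0, -1.01 and -0.99 for Tbc1d10b in cortex, striatum and cerebellum. Of the other INO80 members, Actr8 was nearest at 0.48, in place 240. Over the 24 wild-type libraries the nearest genes were Washc1 (0.07), Ranbp3 (0.08), Gpn1 (0.08), Nelfcd (0.08) and Exosc7 (0.08), none of them on chromosome 7, and Actr8 was in place 266 at 0.14.

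Genes of partner and related machines gave no called change in any tissue by edgeR or DESeq2. Over all genes tested, edgeR called 0.130, 0.128 and 0.138% in cortex, striatum and cerebellum, and DESeq2 called 0.184, 0.244 and 0.192%. With shares this low, the absence of a call says little about lists of this size. The 6 further INO80 components that other complexes share (Ruvbl1, Ruvbl2, Actl6a, Actb, Uchl5 and Yy1) had median log2 fold changes of -0.05, -0.02 and -0.02 in cortex, striatum and cerebellum. Among them Actl6a, an actin-like subunit gene, had the smallest p in cerebellum (-0.21 ± 0.09, unadjusted p = 0.0367, adjusted 1), and Uchl5 had it in cortex (-0.15 ± 0.10) and striatum (0.22 ± 0.13). The 18 genes of SRCAP and TIP60/p400, remodellers that deposit the histone variant H2A.Z, had medians of 0.01, 0.02 and -0.06. Actr6 in striatum (0.20 ± 0.09, unadjusted p = 0.0352, adjusted 1) had the smallest p of that list in any tissue. An unadjusted p under 0.05 was met by 3.32% of all genes tested in striatum and 2.08% in cerebellum. The 6 genes of H2A variants and their chaperone Anp32e, which include H2afz, had medians of -0.13, -0.01 and -0.06. In the lists of 25 BAF and 31 ISWI, CHD and NuRD genes, other families of ATP-driven remodellers, medians ran from -0.06 to 0.01 and from -0.08 to 0.10. Brd9, a BAF bromodomain gene, had the smallest p of the first list in any tissue, in cortex (-0.22 ± 0.11, unadjusted p = 0.0591, adjusted 0.965). In the second list the smallest p in cerebellum was that of Mta1 (-0.13 ± 0.07, unadjusted p = 0.0896 by edgeR). In cortex it was that of Mbd2 (0.12 ± 0.08, unadjusted p = 0.168), and in striatum that of the chromodomain gene Chd7 (-0.21 ± 0.16, unadjusted p = 0.201, adjusted 1). On the interval list, 16 of 21, 16 of 22 and 17 of 23 tested genes were called lower, with Taok2, a kinase gene, at the smallest p in each tissue (-0.96 ± 0.06, -1.04 ± 0.07 and -1.06 ± 0.07).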

How the data were processed

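The study's authors deposited raw gene-level read counts in 1 table, keyed by Ensembl identifier. FastQC 0.10.1, STAR 2.4.2a, SAMtools and Picard are listed in the submitters' processing notes. The notes name the builds GRCm38 and mm8 without a role for either. How reads were counted, on which annotation and with which strand setting is not given in the sources used here. A stranded mRNA kit was used, per the labels' protocols. The 92 spike-in rows (0.0614 to 1.09% of a library's counts) entered neither library sizes nor tests. GENCODE vM21 on GRCm38 gave symbols and coordinates and matched 46574 of 47069 gene identifiers. Promoter sequence came from RefSeq.

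Each tissue was fitted on its own with edgeR 4.0.16 (R 4.3.3): TMM scaling, the filterByExpr filter by genotype, robust quasi-likelihood dispersions, and a design of sex and genotype. P-values were 2-sided and adjusted by the Benjamini-Hochberg method over all genes tested. An SE is the absolute log2 fold change divided by the root of the F statistic. CPM is on TMM-scaled library sizes, and log2 CPM uses a prior count of 2. Tissue differences of the effect came from 1 fit of all 48 libraries, with group means and sex and no term for the animal. The fit was run on simulated cortex counts with known changes. Those counts were drawn gene by gene, without the variation between libraries that genes share, so the run does not show how that variation affects p-values. DESeq2 1.42.0 and limma 3.58.1 were alternatives. Of the 48 columns, 0 repeated another.

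The labels tie 1 animal number to 3 tissues. Deviations from group means had median correlations of 0.37, 0.43 and 0.24 between libraries of 1 animal (cortex with striatum, cortex with cerebellum, striatum with cerebellum), and -0.07, -0.00 and -0.04 between animals of 1 genotype. The members and lists were chosen with earlier results of these data known. Named genes are the members, Hirip3, Doc2a, up to 3 genes of each list by smallest p, and the 5 genes most like Ino80e. Without molecular identifiers, PCR copies count as separate reads.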

Additional observations from a re-analysis of the deposited data

Results flagged for a closer look

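Ino80 in the deletion cerebellum library D809 stood at 25.0 CPM, apart from the other 7 libraries of its group, which ran from 42.4 to 57.0. The gap was 0.54 of the range of the group. Of 60 groups of 8 libraries examined, over 10 members, this was the 1 that stood out, and chance alone gives about 1 in 20. The same library held the lowest values of its group for Ino80d (15.1 CPM) and Nfrkb (26.2 CPM), and it had the lowest length score of its group (-0.14).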

How the results depend on the processing

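In each tissue Ino80e stayed lower under every alternative run. It kept its call except in 1 sex alone and, in cortex, with the striatal marker covariate (-0.95, adjusted p = 0.0512 by edgeR). Males alone gave -0.87, -0.88 and -0.97 in cortex, striatum and cerebellum (adjusted p = 1 each), and females alone -1.14, -0.97 and -1.05 (0.568, 0.535 and 0.374). Leaving out each replicate in turn gave -1.08 to -0.95, -0.97 to -0.84 and -1.06 to -0.95, with adjusted p up to 0.0246, 0.0115 and 0.00628. With the animal as a random replicate block in limma, the values were -1.02, -0.89 and -1.01. DESeq2 gave adjusted p of 1.02e-07, 5.12e-10 and 2.79e-11. The other 9 members had 0 calls under all alternatives, with log2 fold changes from -0.35 to 0.37. With the animal as a replicate block, 2 members in place of 1 were called between wild-type cerebellum and cortex, and 3 in place of 2 between cerebellum and striatum. The share of all genes called also rose with the block, to 57.4% and 56.4% in these comparisons. The block changed no other call among the members. A fit of wild-type tissues without thalamic-marked striatal libraries was not run, since the library concerned is a deletion library. Over the named genes other than Ino80e, together with the Ino80e differences between tissues, and all alternatives, 3090 values kept their direction where called and their side of the threshold, 89 lost the call and 7 gained one. Each member had 185 counts or more in every library. Changes within a member's own interval were not excluded, and the call over all genes could also miss a change whose interval leaves out 0.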
